A study of Homo sapiens with 6 samples.

Results

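Glutathione is the main small thiol of the cell, and 10 genes of its synthesis, reduction, breakdown and cystine supply were followed in HepG2 cells exposed to glycine. The genes were taken by symbol from 57500 genes in the deposited tables, and all 10 were found: GCLC, GCLM, GSS, GSR, GGT1, GGCT, CHAC1, CHAC2, OPLAH and SLC7A11. The rule that defines them rests on what they encode, and it was set with earlier results of these data known. HepG2 is an established human hepatocellular carcinoma line with many hepatocyte functions. Wild-type HepG2 cells received vehicle or 10 mM glycine for 24 h, and total RNA was sequenced from 3 libraries per group. All 6 libraries therefore came from a single cell line at a single dose and time. The study describes its standard medium as already holding glycine, so the 10 mM was a supplement and vehicle was not free of glycine. The labels do not tie replicates to separate cultures. The study's methods define biological replicates by experimental day, and its figure legend counts 3 biological replicates per group for this sequencing. If libraries of a group shared a culture, the p-values would measure technical spread alone.

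Glutathione is built in 2 steps. Glutamate cysteine ligase, a heterodimer of the catalytic chain GCLC and the modifier chain GCLM, joins glutamate to cysteine, usually the rate-limiting step, and glutathione synthetase (GSS) then adds glycine, the amino acid supplied here. Oxidized glutathione is returned to its reduced form by glutathione reductase (GSR) with NADPH. Breakdown starts outside the cell with gamma-glutamyltransferase (GGT1) or in the cytosol with CHAC1 and CHAC2, and gamma-glutamylcyclotransferase (GGCT) and 5-oxoprolinase (OPLAH) return the glutamyl part to glutamate. SLC7A11 imports cystine, the source of cysteine, in exchange for glutamate. In hepatocytes the pathway serves detoxification and export of glutathione to blood and bile, and NRF2 and ATF4 are transcription factors well known to act on several of its genes.

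Glycine-treated cells had less GSR and GCLC mRNA than vehicle-treated cells, by 23.9% and 14.1% of the mean level. The mRNA of GSS, the enzyme that uses glycine, did not pass the test, and nor did that of any breakdown enzyme or of the cystine carrier. CHAC1 was too low to be tested. Of the 9 members tested, 2 were lower, 0 were higher and 7 were not called (edgeR quasi-likelihood test, two-sided, adjusted p under 0.05 over 15492 genes). At an unadjusted p under 0.05 there were 3 lower and 1 higher, and DESeq2 and limma-voom also called 2 lower and 0 higher. Over 15 alternative analyses, the GSR call was kept in 14 and the GCLC call in only 7. Of all tested genes 13.3% were called, with 6.54% of the tested genes lower and 6.71% higher. The median log2 change of the 9 members was 0.06, and that of all tested genes was 0.00. Levels are given as CPM, which are read counts brought to one library size after scaling for library composition. In bulk RNA, fewer cells of a type and less RNA per cell cannot be told apart.

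**Figure D1:**
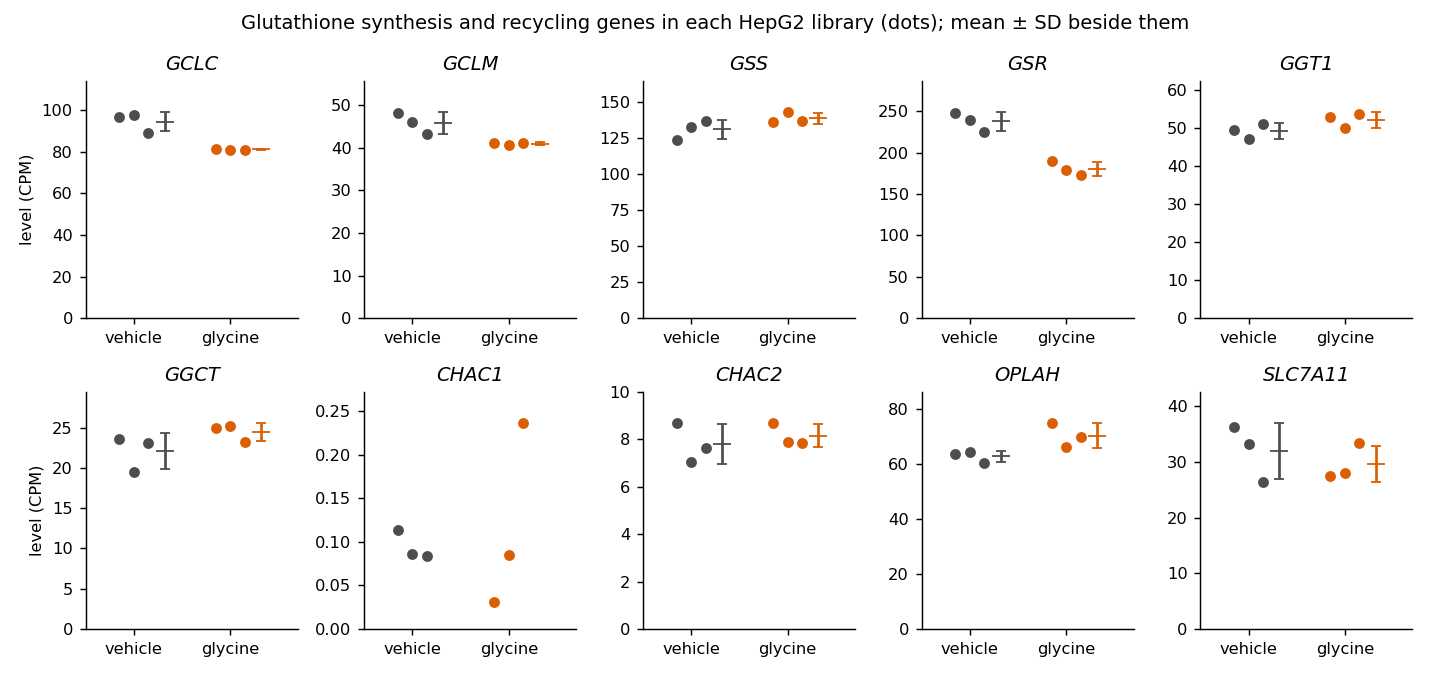
Level of each of the 10 genes in CPM (vertical axis, from 0) in the 3 vehicle libraries (grey) and the 3 glycine libraries (orange), with the mean ± SD beside the dots for the 9 tested genes. The GSR, GCLC and GCLM dots of glycine lie below those of vehicle, the OPLAH dots lie above, and the groups overlap in the other panels.

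Total counts ranged from 31795489 to 58815986 per library, the deepest being glycine replicate 2, so a single count was worth 0.017 to 0.0315 CPM. This is a limit of counting alone, since copies made by PCR were not told apart from separate molecules. Hepatocyte markers were abundant in all 6 libraries, and their summed level was 29082 to 33125 CPM with vehicle and 24935 to 28667 CPM with glycine. Of the 8 markers, all tested, 2 were lower (APOA1 and TTR), 0 were higher and the list's median log2 change was -0.27. Of 8 markers of leukocytes, endothelium, fibroblasts and smooth muscle, 5 were tested, with 2 higher (CD68 and COL1A1) and 2 lower (VWF and ACTA2). Their summed level was 76.8 to 87.4 CPM with vehicle and 69.9 to 76.2 CPM with glycine. Most of that sum was ACTA2, at 67.9, 79.3 and 72.3 CPM with vehicle and 65.1, 61.1 and 59.7 CPM with glycine. PTPRC, COL1A2 and DCN were at or near 0, with at most 0.171 CPM in any library. An unnamed gene on the same strand (ENSG00000264772) covers 81.7% of the CD68 exons and had 632 counts in all, so the CD68 value is uncertain, and APOA1-AS covers 8.64% of the APOA1 exons on the opposite strand with 9 counts. On the opposite strand ACTA2-AS1 and FAS cover 17.3% and 12.8% of the ACTA2 exons, with 78 and 4280 counts. The part of these markers in the changes of the glutathione genes was not tested.

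GCLC and GCLM, the chains of the enzyme of the first step, both had lower levels in every glycine library than in any vehicle library. GCLC (ENSG00000001084; GRCh38 chromosome 6, 53497341 to 53616970, minus strand) was at 96.5, 97.7 and 89.1 CPM with vehicle and at 81.4, 81.0 and 81.1 CPM with glycine. The glycine libraries were close together and the vehicle libraries more spread, and the groups did not overlap. The mean fell from 94.4 ± 4.68 to 81.2 ± 0.210 CPM (SD, n = 3 each), a log2 change of -0.22 ± 0.0613 (s.e.; 95% interval -0.35 to -0.09; edgeR adjusted p = 0.0325). This call was not firm: the adjusted p was 0.0530 without a filter on low genes and 0.0818 to 0.0939 when any library other than vehicle replicate 3 was left out. An unnamed gene on the same strand (ENSG00000231683) covers 6.25% of the GCLC exons, with 255 counts in all against 20751 for GCLC.

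GCLM (ENSG00000023909; chromosome 1, 93885205 to 93909456, minus strand) was at 48.3, 46.1 and 43.2 CPM with vehicle and at 41.1, 40.5 and 41.2 CPM with glycine. Again the groups did not overlap, but the gap between the lowest vehicle and the highest glycine library was small beside the vehicle spread. The means were 45.9 ± 2.53 and 40.9 ± 0.327 CPM, and the log2 change of -0.16 ± 0.0651 had an interval from -0.31 to -0.02. GCLM was not called (unadjusted p = 0.0248; edgeR adjusted p = 0.118). Absence of overlap between the groups was common, at 31.6% of all tested genes. Among the members it was seen in 4 of 9, with 3 lower (GSR, GCLC and GCLM) and 1 higher (OPLAH).

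RefSeq promoters (GRCh38.p14) were at hand for 5 of the 10 genes. The 250 bases before the start are shown for GCLC and GCLM, since they encode the chains of 1 enzyme, and for CHAC1, the member with the fewest counts. Capitals mark the letters TGACNNNGC, a core of the antioxidant response element bound by NRF2, and TGATGNAA, a core of the amino acid response element bound by ATF4, searched on both strands in 300 bases (250 before and 50 after the start). Neither pattern was found in the GCLC window.
GCLC, chr6:53545102-53545351, minus strand: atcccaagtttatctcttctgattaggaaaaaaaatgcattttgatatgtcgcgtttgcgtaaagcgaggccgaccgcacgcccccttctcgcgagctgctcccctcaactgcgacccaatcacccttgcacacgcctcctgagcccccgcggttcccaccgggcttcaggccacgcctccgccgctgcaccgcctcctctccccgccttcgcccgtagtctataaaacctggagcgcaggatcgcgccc
GCLM, chr1:93909431-93909680, minus strand: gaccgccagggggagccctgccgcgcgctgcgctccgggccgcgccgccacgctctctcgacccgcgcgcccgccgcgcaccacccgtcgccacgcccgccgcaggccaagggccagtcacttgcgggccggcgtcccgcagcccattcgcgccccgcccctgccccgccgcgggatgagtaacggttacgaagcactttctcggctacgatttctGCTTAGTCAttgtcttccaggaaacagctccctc
CHAC1, chr15:40953221-40953470, plus strand: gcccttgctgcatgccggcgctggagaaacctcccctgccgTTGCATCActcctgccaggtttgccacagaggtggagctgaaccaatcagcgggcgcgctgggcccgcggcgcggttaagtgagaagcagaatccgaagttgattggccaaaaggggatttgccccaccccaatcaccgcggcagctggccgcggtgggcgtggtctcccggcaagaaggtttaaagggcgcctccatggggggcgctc
The GCLM promoter holds the antioxidant core as GCTTAGTCA, the reverse complement, at bases -34 to -26 from the start. The CHAC1 promoter holds the amino acid core as TTGCATCA, also reversed, at -209 to -202. Of the 2 GGT1 promoters listed, 1 holds the antioxidant core as GCTGGGTCA at -29 to -21, and neither pattern was found in the CHAC2 windows. Of 35116 RefSeq promoters of this length, 4687 (13.3%) hold the antioxidant core and 1270 (3.62%) the amino acid core. A match of letters is a description and not a binding site, and no match says only that these letters are not in this window.

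GSS, which completes glutathione by adding glycine, had overlapping levels in the 2 groups. GSS (ENSG00000100983; chromosome 20, 34928430 to 34955817, minus strand) was at 123, 133 and 136 CPM with vehicle and at 136, 143 and 137 CPM with glycine. The lowest value was that of vehicle replicate 1, and the remaining libraries ran close together. The means were 131 ± 6.79 and 138 ± 3.81 CPM, and the log2 change was 0.08, with an interval from -0.05 to 0.22 (edgeR adjusted p = 0.434). The upper bound of that interval is a fold of 1.16.

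GSR, the reductase, was the member that changed most. GSR (ENSG00000104687; chromosome 8, 30678061 to 30727926, minus strand) was at 248, 239.5 and 225 CPM with vehicle and at 189.8, 179 and 173 CPM with glycine. Every glycine library was below every vehicle library, by a gap wider than the range within either group. The mean fell from 238 ± 11.4 to 181 ± 8.42 CPM, a log2 change of -0.40 ± 0.0651 (interval -0.54 to -0.25; edgeR adjusted p = 0.00144). Of all tested genes, 7.26% had a more negative log2 change than GSR and 16.4% than GCLC. Leaving out each library in turn gave an adjusted p of 0.00115 to 0.0106 for GSR, and of 15 alternative analyses the call was absent only when the change was tested against a 1.2-fold threshold (edgeR adjusted p = 0.160).

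**Figure D2:**
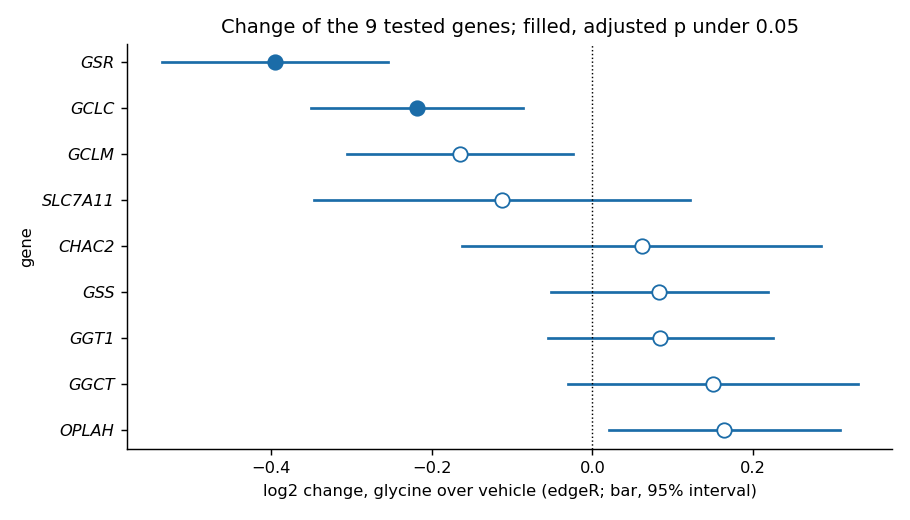
Log2 change with glycine against vehicle (horizontal axis) for the 9 tested genes, with 95% intervals from edgeR as bars and filled dots for adjusted p under 0.05. GSR (-0.40) and GCLC (-0.22) are filled, and the GCLM (-0.16) and OPLAH (0.16) intervals miss 0 although neither gene passed the adjusted threshold.

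The 4 tested genes of breakdown and glutamyl recycling had positive log2 changes, none of which passed the test. OPLAH (ENSG00000178814; chromosome 8, 144051266 to 144063965, minus strand), which opens 5-oxoproline to glutamate, was at 63.7, 64.4 and 60.4 CPM with vehicle and at 75.1, 66.2 and 70.0 CPM with glycine. The groups did not overlap, though glycine replicate 2 lay close to the highest vehicle library. The means were 62.8 ± 2.12 and 70.4 ± 4.47 CPM, and the log2 change of 0.16 ± 0.0666 had an interval from 0.02 to 0.31 (unadjusted p = 0.0286; edgeR adjusted p = 0.130). SMPD5, on the opposite strand, covers 4.65% of the OPLAH exons and had 116 counts in all against 15871 for OPLAH.

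GGCT (ENSG00000006625; chromosome 7, 30496621 to 30504844, minus strand), which frees 5-oxoproline from gamma-glutamyl amino acids, was at 23.6, 19.5 and 23.2 CPM with vehicle and at 25.03, 25.3 and 23.2 CPM with glycine. Vehicle replicate 2 was the lowest library, and glycine replicate 3 lay within the vehicle range. The means were 22.1 ± 2.27 and 24.5 ± 1.13 CPM and the log2 change was 0.15 (interval -0.03 to 0.33; edgeR adjusted p = 0.277). An unnamed gene on the same strand (ENSG00000281039) covers 27.6% of the GGCT exons and had 0 counts. Those 0 counts do not tell whether reads in the shared stretch were kept for GGCT, so its level is uncertain.

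GGT1 (ENSG00000100031; chromosome 22, 24583750 to 24629005, plus strand), the surface enzyme that cleaves the gamma-glutamyl bond, was at 49.5, 47.1 and 51.2 CPM with vehicle and at 53.0, 49.96 and 53.9 CPM with glycine. The ranges overlapped. The means of 49.3 ± 2.06 and 52.3 ± 2.05 CPM gave a log2 change of 0.08 (interval -0.06 to 0.22; edgeR adjusted p = 0.444). GGT1 has near-identical relatives among which reads can be split. The 9 relatives found summed to 0.115 to 0.278 CPM with vehicle and 0.0948 to 0.410 CPM with glycine, and adding them to GGT1 left it not called. The exons of SNRPD3 cover 6.9% of those of GGT1 on the same strand, and SNRPD3 had 23703 counts in all against 12108 for GGT1, so how reads in the shared stretch were assigned bears on the GGT1 level.

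CHAC2 and CHAC1 encode the cytosolic glutathione-specific cyclotransferases, CHAC1 being the form induced in amino acid and endoplasmic reticulum stress. CHAC2 (ENSG00000143942; chromosome 2, 53767792 to 53775196, plus strand) was at 8.71, 7.05 and 7.62 CPM with vehicle and at 8.71, 7.91 and 7.84 CPM with glycine. The ranges overlapped, and the log2 change of 0.06 had an interval from -0.16 to 0.28 (edgeR adjusted p = 0.756). CHAC1 (ENSG00000128965; chromosome 15, 40952962 to 40956519, plus strand) had 4, 3 and 3 counts with vehicle and 1, 5 and 10 with glycine. It was detected in every library, but its 26 counts in all were under the filter, so no fold is given. Glycine replicate 3 held 10 of the 16 glycine counts.

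SLC7A11 (ENSG00000151012; chromosome 4, 138164097 to 138242349, minus strand), the exchanger subunit of the cystine carrier, was at 36.3, 33.3 and 26.5 CPM with vehicle and at 27.5, 28.0 and 33.3 CPM with glycine. It varied most among the tested members, with a coefficient of variation of 15.8% with vehicle and 10.9% with glycine. The means were 32.01 ± 5.04 and 29.6 ± 3.23 CPM, and the log2 change of -0.11 ± 0.108 had an interval from -0.35 to 0.12 (edgeR adjusted p = 0.551), so a change as large as that of GCLC lies within it. The antisense gene SLC7A11-AS1 covers 8.97% of its exons and had 14 counts. SLC3A2, the heavy chain that carries SLC7A11 to the membrane, had a mean of 275 ± 6.15 CPM in vehicle libraries and 294 ± 7.56 CPM in glycine libraries (log2 change 0.09; edgeR adjusted p = 0.349).

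Per kilobase of exon (RPKM), the members spanned a wide range of levels. With vehicle, GSR was at 73.4 ± 3.53 RPKM and GSS at 68.0 ± 3.53 RPKM, and the pair made up 67.6% of the summed RPKM of the 10 genes. OPLAH (14.1 RPKM), GGCT (13.8), GCLC (11.2), GGT1 (11.1), GCLM (8.46), CHAC2 (5.90) and SLC7A11 (3.32) followed in falling order of the vehicle mean level, and CHAC1 was last at 0.0459 RPKM. Of neighbours in this order, GSR and GSS, OPLAH and GGCT, and GCLC and GGT1 had overlapping vehicle ranges, and the other neighbours did not overlap. The exon lengths include stretches shared with other genes, so the places of GGCT and GGT1 depend on how reads there were assigned. GSR and GSS were above 96.2% and 95.8% of all tested genes in level per kilobase, and SLC7A11 was above 48.3%.

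With glycine the order of the mean levels differed in 2 places. GSS (72.0 RPKM) was above GSR (55.8 RPKM), and GGT1 (11.8 RPKM) was above GCLC (9.59 RPKM). The ratio of GSS to GSR in RPKM was 0.837, 0.933 and 1.02 with vehicle and 1.21, 1.34 and 1.33 with glycine. That of GSS to GCLC was 6.11 ± 0.572 with vehicle and 7.51 ± 0.221 with glycine, also without overlap. These 2 ratios were chosen after the values had been seen.

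**Figure D3:**
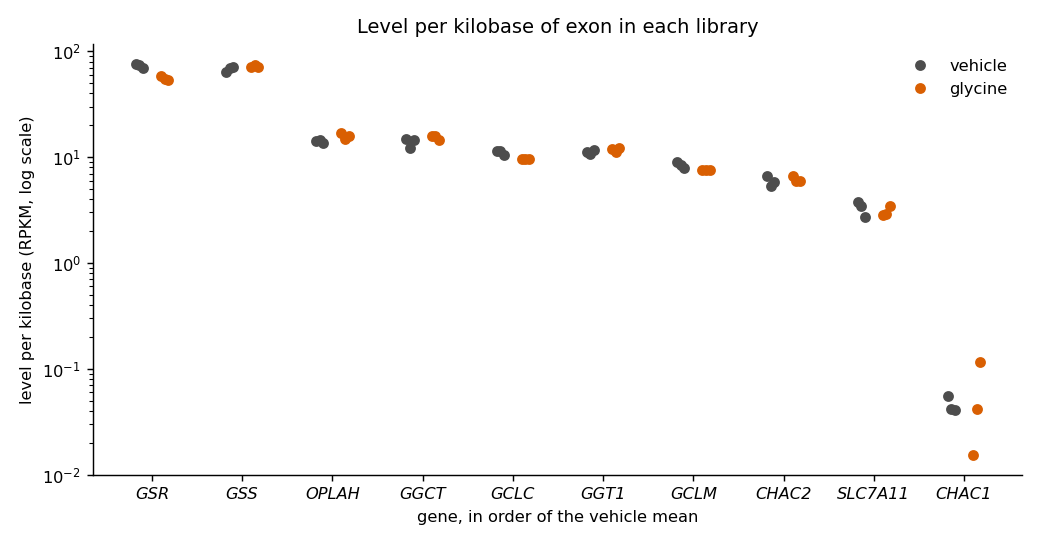
Level per kilobase of exon in RPKM (vertical axis, log scale) of the 10 genes in each vehicle (grey) and glycine (orange) library, in order of the vehicle mean. GSR and GSS stand above the other 8 genes in every library, and CHAC1 lies at or under 0.115 RPKM in every library.

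The proportion of GCLC to GCLM was slightly lower with glycine. The GCLC to GCLM ratio in RPKM was 1.28, 1.36 and 1.32 with vehicle and 1.27, 1.28 and 1.26 with glycine, with means of 1.32 ± 0.0380 and 1.27 ± 0.00881. The highest glycine ratio lay just under the lowest vehicle ratio. The ligase chains set against the cytosolic breakdown enzymes, as GCLC plus GCLM over CHAC1 plus CHAC2 plus GGCT, gave 0.947, 1.14 and 0.910 with vehicle and 0.772, 0.780 and 0.834 with glycine. The groups did not overlap, with means of 0.999 ± 0.124 and 0.795 ± 0.0339. In these sums GGCT and GCLC carry the most RPKM, and the GGCT level depends on how reads in its shared exons were assigned. No test was run on the ratios.

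Genes that supply or use glutathione were read from lists written around the pathway. Of 8 tested genes of cystine and cysteine supply, 1 was higher and 0 were lower: AHCY, which releases homocysteine, rose from 574 ± 51.6 to 712 ± 32.5 CPM (log2 change 0.31; edgeR adjusted p = 0.0197). An unnamed gene on the same strand (ENSG00000250917) covers 3.57% of the AHCY exons and had 41 counts. Of 5 cysteine breakdown genes, 1 was higher and 0 were lower: GOT1, an aspartate aminotransferase that also acts on cysteine sulfinate, rose from 114 to 136 CPM (log2 change 0.26; edgeR adjusted p = 0.0126). The 7 genes of glutathione export and mitochondrial import had 0 calls in edgeR, DESeq2 and limma-voom, with 1 rise and 1 fall among unadjusted p-values under 0.05, and the one with the smallest p was ABCC5 (log2 change -0.26; edgeR adjusted p = 0.0856). ABCC5 was called in 3 of 15 alternative analyses, among them the ones that left out replicate 3 of vehicle (0.0326) or of glycine (0.0336). The AHCY call was absent without vehicle replicate 1 or 3 or glycine replicate 1 or 2 (edgeR adjusted p = 0.0530 to 0.0970), and that of GOT1 without vehicle replicate 1 (0.0656) or glycine replicate 3 (0.0673).

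NADPH feeds GSR, and IDH1, the cytosolic isocitrate dehydrogenase, is one of the enzymes that supply it. Only IDH1 is described from the NADPH supply list, so its value does not speak for NADPH supply as a whole. IDH1 was at 617, 612 and 625 CPM with vehicle and 472, 449 and 461 CPM with glycine (log2 change -0.42 ± 0.0639; edgeR adjusted p = 0.000708). Every glycine library was below every vehicle library, and the 3 libraries of each group lay close together. Of 15 alternative analyses, the call was absent only in the test against a 1.2-fold change (edgeR adjusted p = 0.0793). The antisense gene IDH1-AS1 covers 1.99% of the IDH1 exons and had 212 counts.

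Among 11 peroxidases and glutaredoxins, which spend glutathione on peroxides and protein disulfides, 1 was higher and 2 were lower, with a median log2 change of -0.04. GPX2, the gastrointestinal glutathione peroxidase, fell from 610.3 ± 42.8 to 418 ± 23.1 CPM (log2 change -0.55 ± 0.0749; edgeR adjusted p = 0.000358). GPX1, the widespread cytosolic form, rose from 166 ± 19.8 to 213 ± 22.0 CPM (log2 change 0.35; edgeR adjusted p = 0.0221). GLRX2, a mitochondrial glutaredoxin, had a mean of 15.7 CPM in vehicle and 13.2 CPM in glycine libraries. It was called in edgeR (log2 change -0.25; adjusted p = 0.0413) but in only 4 of 15 alternative analyses, and in none of those that left out 1 library (adjusted p = 0.0638 to 0.112). The GPX1 call was absent without vehicle replicate 1 or 2 or glycine replicate 2 or 3 (edgeR adjusted p = 0.0600 to 0.0941).

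GGT5, a relative of GGT1 with a similar reaction, had the largest rise in these lists. It was at 4.196, 5.16 and 5.23 CPM with vehicle and at 10.96, 12.5 and 13.5 CPM with glycine, a log2 change of 1.34 ± 0.114 (edgeR adjusted p = 6.35e-06), while GGT1 was not called. In vehicle libraries its level was low, and every glycine library was above every vehicle library. It was the only gene called in edgeR among 8 tested glutamyl transferases and dipeptidases outside the 10 members, while DESeq2 also called ANPEP, an aminopeptidase named here after its values were seen, lower (log2 change -0.22 and adjusted p = 0.0845 in edgeR).

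NFE2L2, which encodes NRF2, was at 221, 225 and 235 CPM with vehicle and 173, 189 and 165 CPM with glycine (log2 change -0.37 ± 0.0667; edgeR adjusted p = 0.00271). An unnamed gene on the same strand (ENSG00000213963) covers 17.6% of its exons and had 406 counts. KEAP1, which targets NRF2 for degradation, had a log2 change of -0.15 (interval -0.28 to -0.01, unadjusted p = 0.0324 and adjusted p = 0.140 in edgeR). ATF4 had a log2 change of 0.05 (edgeR adjusted p = 0.698). NFE2L2 was the only one of 11 regulators called, and at an unadjusted p under 0.05 there were 3 lower and 0 higher. GSR, GCLC, GCLM and SLC7A11 are known NRF2 targets, and of these GCLM and SLC7A11 (log2 change -0.11, edgeR adjusted p = 0.551) were not called. Whether NRF2 took part in the changes of these members was not tested. Of 12 NRF2 targets outside the pathway, 6 were lower and 0 were higher in edgeR, DESeq2 and limma-voom. In edgeR, 6.54% of all tested genes were called lower. The median log2 change of the 12 targets was -0.21, with 10 negative and 2 positive values. At an unadjusted p under 0.05 there were 6 lower and 1 higher. The higher one was HMOX1, named here after its values were seen (log2 change 0.22 and adjusted p = 0.0554 in edgeR). AKR1C1, an aldo-keto reductase, fell from 2648 ± 282 to 887 ± 63.3 CPM (log2 change -1.58; edgeR adjusted p = 3.51e-07), and its relatives AKR1B10 (-1.26; adjusted p = 1.24e-05) and AKR1C2 (-1.16; adjusted p = 8.66e-06) were also lower. AKR1C1 and AKR1C2 are near-identical, so reads may have been split between them. OSGIN1, a stress-induced growth inhibitor, had a log2 change of -0.43 (edgeR adjusted p = 0.000885), and AC009119.2 covers 13.9% of its exons on the same strand with 121 counts.

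Of 12 ATF4 targets outside the pathway, 1 was lower and 0 were higher in the same 3 tools, with a median log2 change of -0.04, and at an unadjusted p under 0.05 there were 1 lower and 3 higher. The one called was SLC6A9, the glycine transporter GLYT1, at 33.9, 38.7 and 36.0 CPM with vehicle and 19.9, 20.2 and 19.5 CPM with glycine (log2 change -0.86 ± 0.0716; edgeR adjusted p = 5.8e-06). CCDC24, on the opposite strand, covers 7.83% of the SLC6A9 exons and had 565 counts. SLC7A11 and CHAC1, known ATF4 targets among the 10 genes, were not called and not tested, respectively. None of the lists was tested as a set, and they were written with earlier results of these libraries known.

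**Figure D4:**
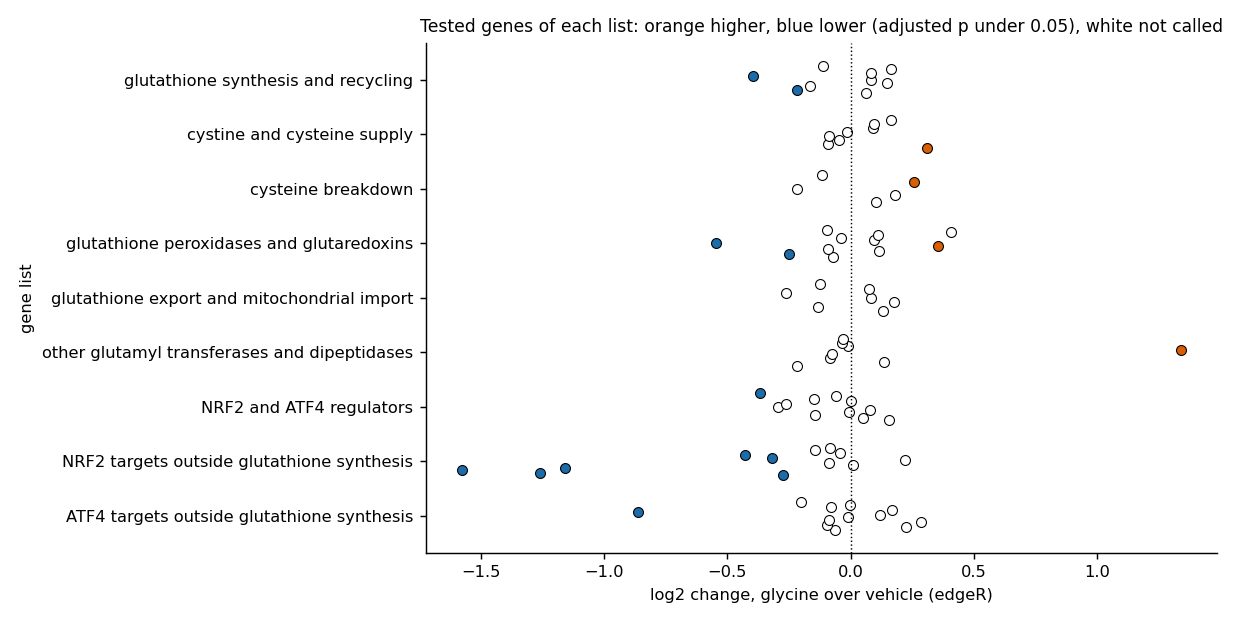
Log2 change with glycine against vehicle (horizontal axis) of every tested gene in the 10 genes' own row and in 8 surrounding lists, with orange for higher, blue for lower (edgeR adjusted p under 0.05) and white for not called. NRF2 targets outside the pathway hold 6 of the blue dots, and the GGT5 dot lies farthest to the right at 1.34.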

How the data were processed

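RNA was sequenced from HepG2 cells after 24 h with vehicle or 10 mM glycine, with 3 libraries per group, grouped by the treatment label. The authors deposited raw read counts per gene, 1 table per library, not normalized. The submitters' processing notes name Trimmomatic 0.36, STAR 2.5.2b, featureCounts, Subread 1.5.2 and GRCh38; the strand setting is not given in the sources used here, so reads in overlapping genes on opposite strands may not be told apart. Symbols were matched through GENCODE 29 for 56898 of 57500 genes.

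Counts were tested with edgeR 4.0.16 (R 4.3.3; quasi-likelihood, two-sided) on the group alone, after the expression filter (minimum count 10, minimum total 15) and trimmed mean of M values scaling, with Benjamini-Hochberg adjustment over 15492 genes and a threshold of 0.05. Each s.e. was obtained from the log2 change and the root of F. CPM used the scaled library sizes, except the value of a single count, and RPKM divided CPM by the exon length in the tables. The code was tested on simulated counts. Alternatives were other scalings and filters, DESeq2 1.42.0, limma 3.58.1 (voom), a 1.2-fold threshold, the replicate number as a block and the removal of each library in turn. Libraries of a group differed by more than sampling noise (chi-square per degree of freedom 7.61 to 29.6).

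All 10 members are named, and from each list up to 4 called genes with the smallest adjusted p, or the gene with the smallest p where none was called, plus SLC3A2, NFE2L2, KEAP1 and ATF4. One list gene is not reported here. Markers are named beside the results they touch, and the main overlapping genes beside the genes described. The members and lists were chosen with earlier results of these data known.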

Additional observations from a re-analysis of the deposited data

How the results depend on the processing

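The lower calls among the 10 genes were 2 (GSR and GCLC). They were 1 without the low-count filter, 1 with the replicate block, 0 in the test against a 1.2-fold change and 1 to 2 when 1 library was left out. The call lost was that of GCLC, with an adjusted p of 0.0530 without the filter and 0.0646 with the block, and in the 1.2-fold test that of GSR too. RLE, upper-quartile and total-count scaling, the stricter filter, DESeq2 and limma-voom gave 2. Of all tested genes, 2053 were called (1040 higher, 1013 lower). The 1.2-fold test called 481 (235 and 246), and leaving out 1 library gave 1272 to 1936 (587 to 926 higher, 655 to 1010 lower); fewer samples and the higher bar are part of how these were built. With 1 library left out, the log2 change of CHAC2 ran from -0.00514 (without vehicle replicate 2) to 0.14 and that of ATF4 from -0.000617 (without glycine replicate 3) to 0.0885, the lowest of each being the reverse of the value with all libraries. Over the log2 changes of members and of list genes picked by the naming rule, 359 kept direction and side of the threshold, 42 lost and 3 gained the call, and 2 reversed. The replicate numbers did not pair the libraries (correlations of same-numbered deviations -0.058, -0.027 and -0.003). Correlations across numbers ran from -0.198 to 0.214. The positive ones were 0.214, 0.180 and 0.214, for vehicle replicates 2, 3 and 1 against glycine replicates 1, 2 and 3, in turn. These positive values match each library to a single partner, and the other cross-number values were negative. Whether the libraries were paired in this way was not tested, and the replicate block followed the label numbers. The replicate block gave 1784 calls and also ended that of GLRX2 (edgeR adjusted p = 0.0796). The number of neighbouring levels that overlap was 3 with RPKM and with TPM. At 26 counts, CHAC1 allows no statement on change.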
